A study of Mus musculus with 27 samples.

Results

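The genes described here encode the Wnt ligands, their receptors and the secreted proteins that modulate them. They were chosen by symbol alone, and all 53 were found among the 24454 genes of the expression table: 19 ligands, 15 receptors and co-receptors, 7 R-spondins and Lgr receptors, 10 secreted antagonists and 2 proteins of ligand maturation. Wnt ligands are lipidated by Porcn, carried to the cell surface by Wls and bound by Frizzled (Fzd) receptors. With the co-receptors Lrp5 and Lrp6 this binding stabilises β-catenin, while Ror1, Ror2 and Ryk serve as receptors of other Wnt responses. R-spondins acting through Lgr4, Lgr5 and Lgr6 keep Frizzled receptors at the surface, and the Sfrp, Dkk and Wif1 proteins block ligands or co-receptors. In the mammary gland Wnt signalling is known for its roles in branching and in the maintenance of basal and stem cells.

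RNA came from tumour cell lines of MMTV-PyMT mice (FVB/N), in which a mammary promoter drives the polyoma middle T oncogene, so every line carried this transgene. The lines carried mutant Bcl9/Bcl9L, coactivators of β-catenin, without the HD1 domain that binds Pygopus (deltaHD1) or the HD2 domain that binds β-catenin (deltaHD2). In ΔHD1/fl and ΔHD2/fl lines a floxed allele was present beside the mutant one, and ΔHD1/- and ΔHD2/- lines had lost it through infection with an adenovirus expressing Cre, followed by sorting for GFP. Per the study's methods the cells were grown from thoracic tumours of 12-week-old females, with fibroblasts removed by trypsinization, and no line with only wild-type Bcl9/Bcl9L was analysed here. Each of 9 lines was left without cytokine or treated for 3 days with Wnt3a at 100 ng/ml or for 4 days with TGFβ at 2 ng/ml, with controls labelled as 4 days, which gave 27 libraries in 12 groups. A group held 2 lines, or 3 for ΔHD2/-. Whether a recombined line came from the tumour of the fl line with the same number is not given in the sources used here.

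Values are CPM, reads per 1000000 reads assigned to genes, and each library held 21.86 to 33.69 M of them. At this depth 1 CPM stood for 21.9 to 33.7 reads, and a count of 0 allowed up to 0.089 to 0.137 CPM (3 reads, counting error only). Axin2, a direct target of β-catenin, lay at 0.131 to 2.97 CPM without cytokine and at 13.5 to 80.8 CPM with Wnt3a, higher in 9 of 9 lines. Bcl9 and Bcl9l reads do not separate mutant from floxed alleles, and untreated lines held 34.03 to 67.8 and 138 to 323 CPM. Some lines stood apart. ΔHD1/fl line 2 and ΔHD1/- line 2 held at most 0.522 CPM of Cdh1 and 0.0746 CPM of Epcam without cytokine, both defining epithelial markers that were at 263 CPM or more in the 7 other lines, and 4188 and 3678 CPM of Vim. ΔHD2/- lines 2 and 3 were nearly alike: their log2 values correlated across genes at 0.993 to 0.997, and those of 15 further replicate pairs at 0.807 to 0.957. The same 2 ΔHD1 lines were also highest in 4 of 6 fibroblast markers. The exceptions were Lum, at 0 in all untreated lines, and Col6a3, at 196 and 214 CPM in ΔHD2/- lines 2 and 3 against 47.7 and 8.79 CPM in these ΔHD1 lines. Pdgfra was at 416 and 629 CPM, Pdgfrb at 762 and 473 CPM and Col1a1 at 659 and 2603 CPM. The 6 fibroblast markers summed to 1886 and 3715 CPM in these lines and to 18.4 to 215 CPM in the 7 others, while ΔHD1/- line 2 kept 1089 CPM of the epithelial keratin Krt8. The epithelial keratins Krt18 and Krt7 were at only 2.23 and 0.148 CPM in that line, against at least 163 and 12.7 CPM in the 7 others. Both of these ΔHD1 lines also held basal epithelial markers, with Trp63 at 180 CPM in ΔHD1/fl line 2, the highest of the 9 lines, and at 75.8 CPM in ΔHD1/- line 2, and Krt14 at 356 and 223 CPM. The 4 basal or myoepithelial markers summed to 537 and 303 CPM there and to 1120.3 to 15662 CPM in the 7 others. What kind of cell these lines are was not tested. Where leaving out both of these ΔHD1 lines changed a call, the value without them is given as well.

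Without cytokine, 17 of the 53 genes reached 1 CPM in every line, 15 in some lines and 21 in none. The 17 were mostly receptors: Fzd1 to Fzd8, Lrp5, Lrp6, Ror1 and Ryk, together with Lgr4, Porcn, Wls and the ligands Wnt9a and Wnt10a. Thus 12 of 15 receptors were shared by all lines, against 2 of 19 ligands and 0 of 10 secreted antagonists. In single libraries 19 to 29 of the genes reached 1 CPM. The highest count was in ΔHD2/fl line 1 without cytokine or with Wnt3a, and the lowest in ΔHD2/- line 2 with Wnt3a. Untreated ΔHD1/- line 2 expressed 20, and the other untreated lines expressed 22 to 29.

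**Figure D1:**
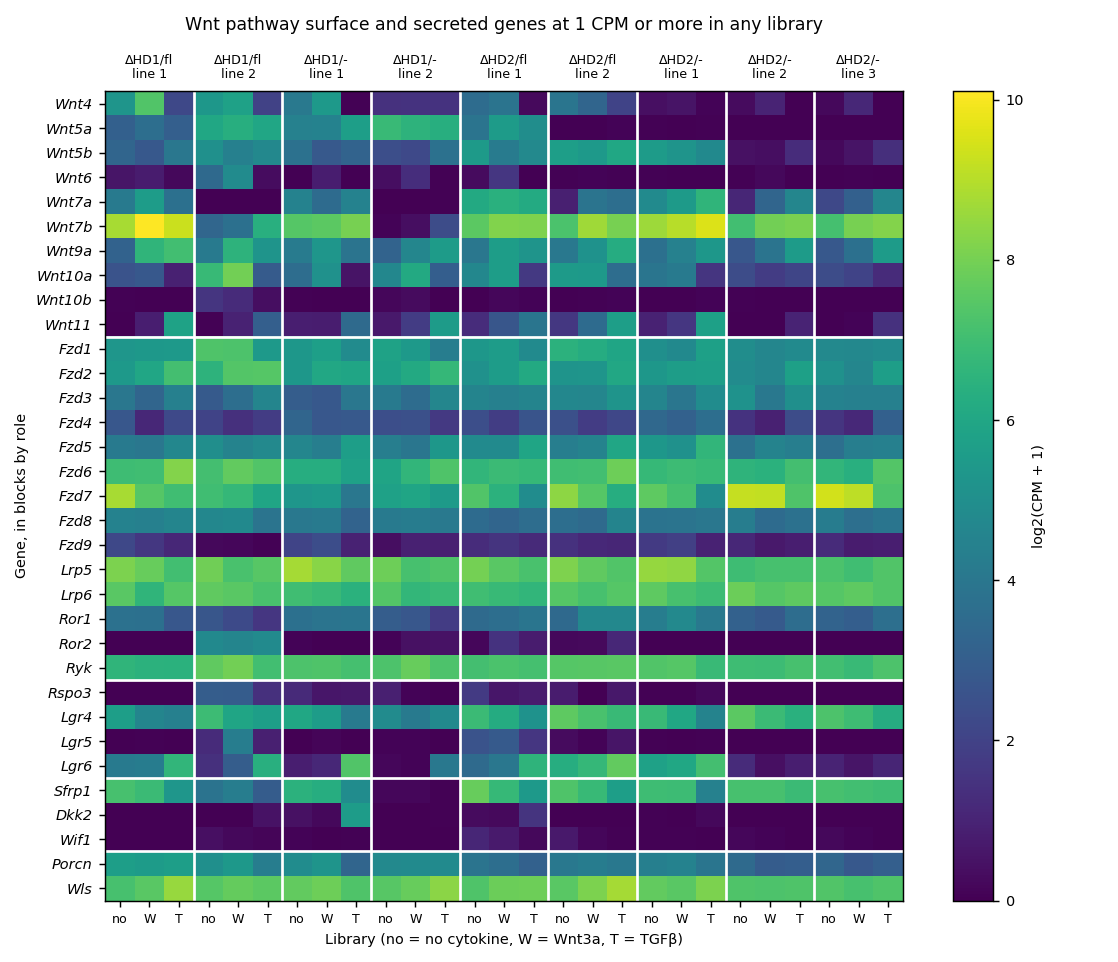
Expression of the 33 genes that reached 1 CPM in any library. Columns are the 27 libraries in sets of 3 per line (no cytokine, Wnt3a, TGFβ), rows are genes in blocks by role separated by white lines, and colour is log2(CPM + 1). Lrp5, Lrp6, Ryk and Wls are bright in all lines, while Wnt7b, Wnt5a, Wnt7a and Ror2 are bright in some lines and dark in others.

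In all, 20 genes stayed under 1 CPM in all 27 libraries, among them 9 ligands (Wnt1, Wnt2, Wnt2b, Wnt3, Wnt3a, Wnt8a, Wnt8b, Wnt9b and Wnt16), Fzd10, Rspo1, Rspo2, Rspo4 and 7 antagonists (Sfrp2, Sfrp4, Sfrp5, Frzb, Dkk1, Dkk3 and Dkk4). The highest value among them was 0.852 CPM, of Rspo1 in a TGFβ-treated ΔHD2/fl line. Wnt3a itself gave 2 reads in all, from 1 library, so the RNA of the added ligand was near the limit of detection in the lines. Rspo4, Dkk1 and Dkk4 gave 0 reads in every library. Dkk2, which binds Lrp5 and Lrp6, reached 1 CPM in TGFβ-treated libraries only. It was at 47.6 CPM in ΔHD1/- line 1 and 1.89 CPM in ΔHD2/fl line 1 with TGFβ, and at most at 0.426 CPM in the 7 other TGFβ-treated lines.

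Levels of different genes were compared per length, as CPM per kb of exon. Fzd7 (chromosome 1, 59482147 to 59486955), a receptor of mammary stem and basal cells, had the highest mean in untreated lines, at 64.3 ± 51.7 CPM per kb (SD, n = 9). It was followed by Ryk at 50.6 ± 10.1, Wls at 46.1 ± 5.47, Lrp5 at 43.5 ± 15.8 and Wnt7b at 38.8 ± 32.2 CPM per kb. The SDs of these neighbours overlapped, so their order was not larger than the spread between lines. The highest of the R-spondin receptors was Lgr4, at 22.7 ± 11.6 CPM per kb, and of the antagonists Sfrp1, at 26.1 ± 15.9 CPM per kb. Wls and Ryk were the most even of the 5 leading genes, with ranges of 37.5 to 54.0 and 33.4 to 67.7 CPM per kb. Fzd7 spanned 8.45 CPM per kb in ΔHD1/- line 1 to 149 in ΔHD2/- line 3.

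**Figure D2:**
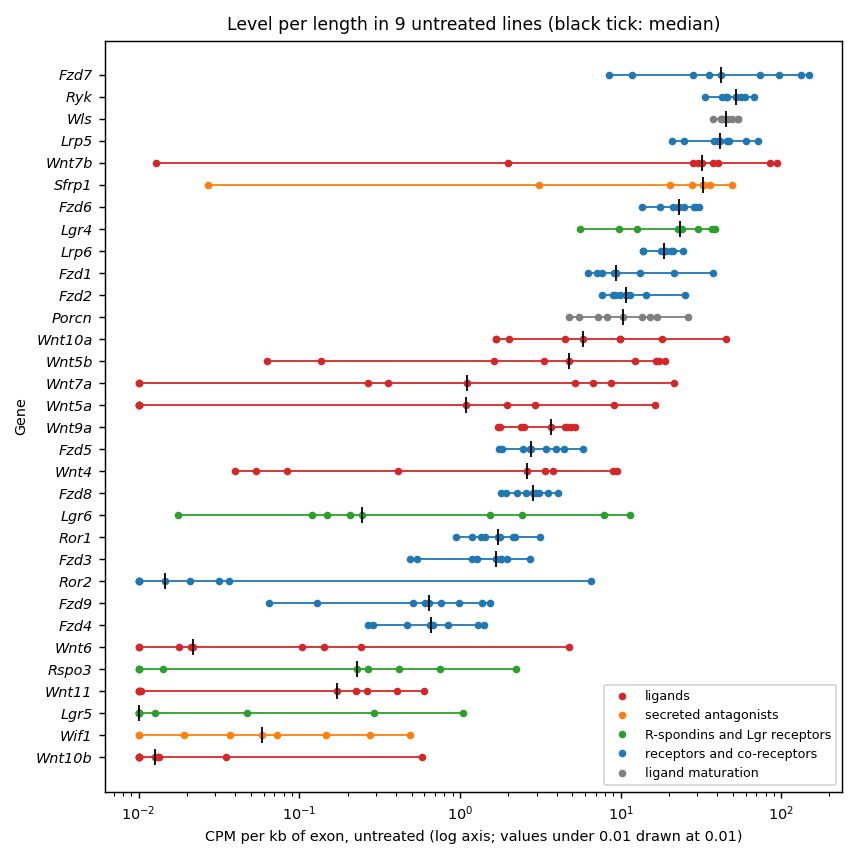
Level per length of the genes in the 9 untreated lines. The horizontal axis is CPM per kb of exon on a log scale, each dot is 1 line, lines join the lowest and highest line, black ticks are medians, colours are roles and values under 0.01 are drawn at 0.01. Wls and Ryk lie within narrow ranges near 50 CPM per kb, and Wnt7b and Sfrp1 each have 1 line (ΔHD1/- line 2) far below the rest.

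The ligand makeup differed from line to line. Wnt7b, a luminal Wnt, held the largest part of the summed ligand level per length in 7 of 9 untreated lines, at 41.0% to 87.6%. The exceptions were the lines without Cdh1 and Epcam: Wnt10a led in ΔHD1/fl line 2 (51.0%) and Wnt5a in ΔHD1/- line 2 (52.5%). The summed level of the 19 ligands lay between 31.4 and 121 CPM per kb. Among Frizzled genes Fzd7 led in 6 of 9 untreated lines, at 41.5% to 76.6% of the summed Frizzled level. The other 3 lines, all ΔHD1, were led by Fzd1 (ΔHD1/fl line 2, 28.5%), Fzd6 (ΔHD1/- line 1, 31.9%) and Fzd2 (ΔHD1/- line 2, 23.7%).

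In untreated lines 10 genes reached 1 CPM in some and were under 0.1 CPM in others: Wnt7b, Wnt5a, Wnt7a, Ror2, Wnt6, Rspo3, Lgr5, Wnt11, Wnt10b and Wif1. Wnt7b was at 0.0594 CPM in ΔHD1/- line 2, 9.21 CPM in ΔHD1/fl line 2 and 131 to 434 CPM in the other 7 lines. Its relative Wnt7a was at 0 in the same 2 ΔHD1 lines and at 0.851 to 68.5 CPM elsewhere. Wnt5a, a ligand of β-catenin-independent responses, showed another split.
It was at 7.64 and 63.9 CPM in the ΔHD1/fl lines, 20.7 and 116 CPM in the ΔHD1/- lines and 13.8 CPM in ΔHD2/fl line 1. In ΔHD2/fl line 2 and all 3 ΔHD2/- lines it was at 0 to 0.0437 CPM, a split that cut across the ΔHD2/fl group. Its receptor Ror2 reached 26.6 CPM in ΔHD1/fl line 2 but was at most at 0.148 CPM in the other 8 untreated lines. Wnt6 (9.96 CPM) and Wnt10b (1.98 CPM) also reached 1 CPM in ΔHD1/fl line 2 alone, whereas Rspo3 was highest there (6.94 CPM) and reached 1 CPM in 2 further lines. Lgr5, known as a stem cell marker, peaked in ΔHD2/fl line 1 at 4.96 CPM, as did the antagonist Wif1 at 1.12 CPM, and both were at 0 in other lines.

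ΔHD1/- line 2 stood out also for Sfrp1, an antagonist that binds Wnt ligands, with 0.119 CPM against 13.5 to 216 CPM in the other untreated lines. Wnt5b was at 0.360 and 0.167 CPM in ΔHD2/- lines 2 and 3 and at 4.33 to 50.3 CPM in all others. Wnt4, a ligand downstream of progesterone in the mammary gland, was at 0.167 to 0.349 CPM in the ΔHD2/- lines and at 1.72 to 39.9 CPM elsewhere. The 2 ΔHD1 lines without Cdh1 and Epcam, with high fibroblast markers and with Trp63 and Krt14, thus supplied the lowest Wnt7b, Wnt7a and Sfrp1 and the highest Wnt5a, Wnt10a or Ror2, and the part of those markers in these values was not tested. These are descriptions of single lines, and what a genotype adds to them was tested as given further on.

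The cytokine responses were tested with limma on log2(CPM + 1), and a gene was called at an adjusted p of at most 0.05 over all 13270 tested genes and a log2 fold change of at least 1 in size. Of the 53 genes, 32 passed the filter on low values and entered the test. For the mean Wnt3a response over the 4 genotypes 0 of these 32 were called, at a background of 0.0226% of all genes, and 2 were at an unadjusted p under 0.05, as were 4.63% of all genes. Treatments of 1 line shared its deviations, so the same test was also made with cell line as a block. It called 1 of 32, Wnt9a, at a background of 0.241%, and 10 were at an unadjusted p under 0.05, as were 2292 of the 13270 genes. The edgeR test of recovered reads called 0, with 4 at an unadjusted p under 0.05 beside 501 of all genes.

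Wnt9a (chromosome 11, 59306849 to 59333552) encodes a ligand that can act through β-catenin. Without cytokine it was at 7.96 and 16.4 CPM in the ΔHD1/fl lines, 17.4 and 8.31 CPM in the ΔHD1/- lines, 15.0 and 15.5 CPM in the ΔHD2/fl lines, and 12.2, 5.72 and 5.94 CPM in the ΔHD2/- lines. With Wnt3a the same lines held 96.2 and 91.8 CPM, 38.4 and 23.8 CPM, 48.4 and 34.2 CPM, and 20.6, 13.9 and 12.2 CPM. It was higher in 9 of 9 lines, and treated and untreated lines did not overlap in 3 genotypes, whereas in ΔHD2/- the lowest treated line met the highest untreated one. So few lines in a group can separate by chance, and the share of all genes that did so was not counted. On the log2 scale the mean response was 1.62 ± 0.28 (SE), at a limma adjusted p of 0.0549, or 0.0342 with the block. The adjusted p lay between 0.00388 and 0.577 in 16 alternatives, highest without ΔHD2/fl line 2. Leaving out ΔHD1/fl line 2 gave 0.00431 and leaving out ΔHD2/- line 1 gave 0.0464, against 0.00388 without both lines that lacked Cdh1 and Epcam, where 0.593% of all genes were called.

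A further 2 genes moved the same way with Wnt3a in all 9 lines, without a call in either fit. Wnt7b was higher by 0.71 ± 1.22 on the log2 scale (SE, limma adjusted p = 1.0, with the block 0.245). Its medians were 148 CPM without cytokine and 258 CPM with Wnt3a, and the ranges of the 9 lines overlapped. Lgr4, a receptor for R-spondins, was lower at -0.70 ± 0.36 (limma adjusted p = 1.0, with the block 0.138), with medians of 118 and 64.4 CPM. Wnt6 was higher in 8 of 9 lines and reached 1 CPM in 3 with Wnt3a, against 1 without, with no call (0.60 ± 0.44). In ΔHD2/fl line 2 and ΔHD2/- lines 2 and 3 Wnt6 stayed at or under 0.166 CPM with Wnt3a. A rise in these lines was near the limit of detection. Wnt11 reached 1 CPM in 4 lines with Wnt3a and in 2 without (0.83 ± 0.57, not called). Across all genes tested, 1.73% were higher and 3.22% lower in all 9 lines. The 10 tested ligands had a median log2 fold change of 0.60, of which 8 were positive, and the 14 tested receptors one of -0.05, beside -0.06 over all genes. The comparisons of both cytokines used the same untreated libraries.

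**Figure D3:**
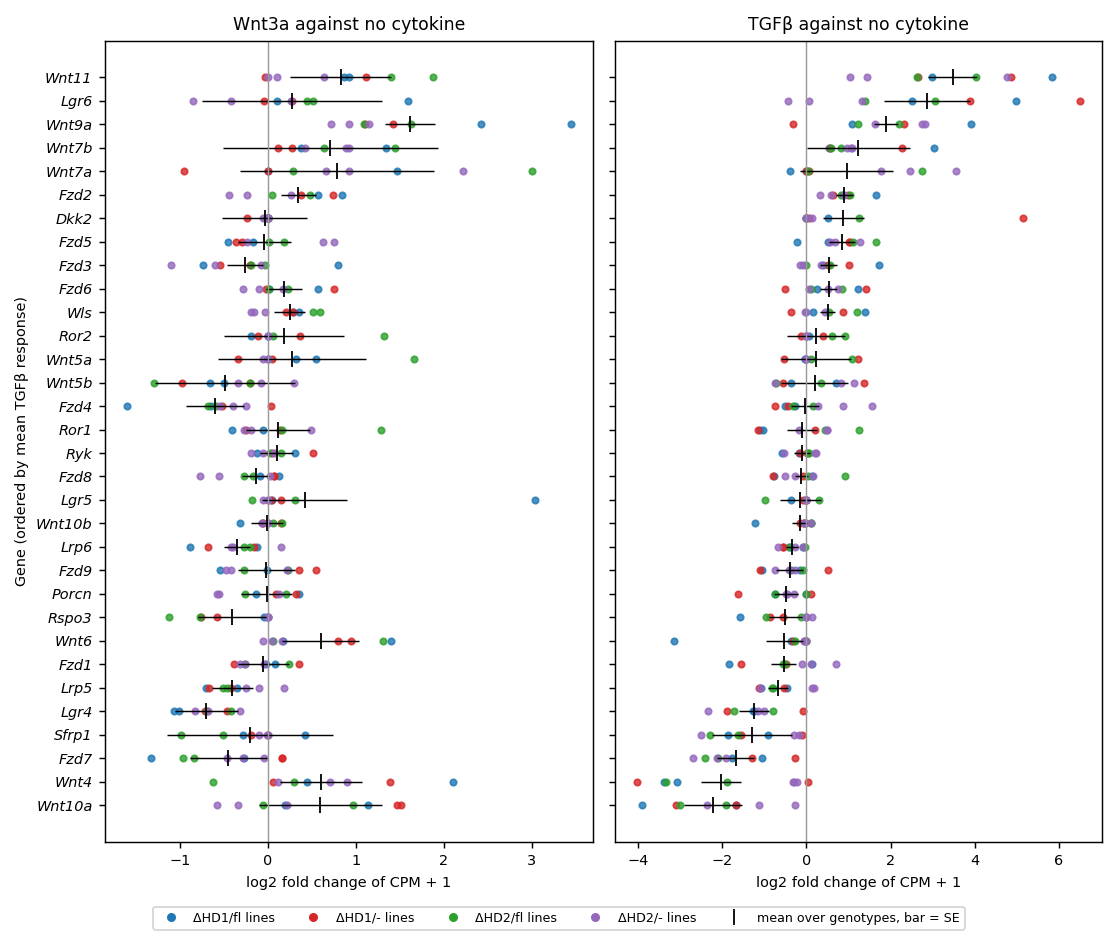
Response of the 32 tested genes to Wnt3a (left) and TGFβ (right). The horizontal axis is the log2 fold change of CPM + 1 against the untreated library of the same line, each dot is 1 line coloured by genotype, and black ticks with bars are the mean over genotypes ± SE. With Wnt3a all dots of Wnt9a lie above 0, and with TGFβ those of Wnt11 lie above 0 and those of Fzd7 and Wnt10a below it.

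TGFβ moved more of the genes. Of the 32 tested, 6 were called in the mean response, 2 higher (Wnt11 and Wnt9a) and 4 lower (Wnt10a, Wnt4, Fzd7 and Lgr4), against a background of 5.42%. By direction the background was 1.86% higher and 3.56% lower. With cell line as a block 9 were called (background 8.92%): the same 6, with Lgr6 and Wnt7b higher and Sfrp1 lower. Over all genes the median TGFβ response was -0.16 on the log2 scale, and median-of-ratios scaling moved it to -0.02. Relative to the -0.16, the 6 called genes changed by 3.64 (Wnt11), 2.06 (Wnt9a), -2.05 (Wnt10a), -1.86 (Wnt4), -1.51 (Fzd7) and -1.09 (Lgr4), and each kept its direction under that scaling. The share of higher genes among all called was 34.4%, or 50.2% with median-of-ratios scaling. Since these are bulk samples, fewer cells of a type and less RNA per cell cannot be told apart.

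Of the 6 called genes 5 have an entry among the RefSeq promoters (GRCm38.p6), and Wnt10a is named only. The bases before their annotated starts are shown because these genes moved with TGFβ, whose Smad factors bind the letters CAGAC, and because the line of signalling they belong to ends in TCF/LEF factors, which bind CTTTGAT or CTTTGTT. Both strands were searched in 250 bases before each start, and matches are in capitals. Bases that another transcript of the gene uses as exon were left off the 3′ end. All lie on the plus strand.
Wnt11 first start, chr7:98834862-98835083: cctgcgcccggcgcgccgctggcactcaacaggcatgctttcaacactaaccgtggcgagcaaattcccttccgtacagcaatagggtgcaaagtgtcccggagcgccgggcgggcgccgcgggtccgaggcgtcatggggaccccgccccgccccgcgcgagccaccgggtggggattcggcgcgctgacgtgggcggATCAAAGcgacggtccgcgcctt
Wnt11 second start, chr7:98838595-98838844: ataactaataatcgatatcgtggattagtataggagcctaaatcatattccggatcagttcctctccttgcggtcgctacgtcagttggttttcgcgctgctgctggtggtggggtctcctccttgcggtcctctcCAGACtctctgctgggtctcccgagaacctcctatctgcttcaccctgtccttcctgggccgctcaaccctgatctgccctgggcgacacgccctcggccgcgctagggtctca
Wnt9a, chr11:59306680-59306848: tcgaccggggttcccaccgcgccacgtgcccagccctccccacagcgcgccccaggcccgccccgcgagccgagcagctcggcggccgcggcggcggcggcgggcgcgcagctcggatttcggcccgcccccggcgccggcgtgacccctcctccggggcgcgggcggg
Wnt4, chr4:137277385-137277488: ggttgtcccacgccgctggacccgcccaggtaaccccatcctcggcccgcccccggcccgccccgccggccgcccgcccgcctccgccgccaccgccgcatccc
Fzd7, chr1:59481897-59482146: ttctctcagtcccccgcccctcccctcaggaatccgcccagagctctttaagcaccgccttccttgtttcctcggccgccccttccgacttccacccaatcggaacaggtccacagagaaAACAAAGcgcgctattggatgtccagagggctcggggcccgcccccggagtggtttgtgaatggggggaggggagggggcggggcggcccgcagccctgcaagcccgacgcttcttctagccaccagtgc
Lgr4, chr2:109917397-109917646: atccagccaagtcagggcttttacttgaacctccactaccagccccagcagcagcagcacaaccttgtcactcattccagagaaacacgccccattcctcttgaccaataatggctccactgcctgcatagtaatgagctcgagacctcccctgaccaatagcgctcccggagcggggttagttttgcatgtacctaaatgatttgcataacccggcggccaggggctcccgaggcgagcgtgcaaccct
Wnt11 held a TCF/LEF match before its first start and a CAGAC match before its second one, which lies within the gene, Fzd7 held a TCF/LEF match, and the windows of Wnt9a, Wnt4 and Lgr4 held neither. Over all 32851 windows of that length, 8.06% held a TCF/LEF match and 42.2% a CAGAC match, and over the 38 windows of 35 of the 53 genes 10.5% and 39.5%. The windows of Wnt4 and Wnt9a were rich in GC, at 85.2% and 84.4%, beside a median of 52.4% over all windows.

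Wnt11 (chromosome 7, 98835084 to 98854747), a ligand known mostly for β-catenin-independent responses, showed the largest rise. Without cytokine it was at 0 and 0.0373 CPM in the ΔHD1/fl lines, 0.812 and 0.623 CPM in the ΔHD1/- lines, 1.47 and 2.15 CPM in the ΔHD2/fl lines, and 0.961, 0 and 0 CPM in the ΔHD2/- lines. With TGFβ it was at 55.7 and 7.24 CPM, 10.4 and 45.8 CPM, 14.2 and 49.9 CPM, and 52.1, 1.04 and 1.71 CPM. Treated and untreated lines of a genotype did not overlap, which so few lines in a group can also do by chance. Wnt11 was higher in 9 of 9 lines, least in ΔHD2/- lines 2 and 3. In ΔHD1/fl line 1, at 0 without cytokine, it was at least 406-fold higher with TGFβ against the 3-read floor. Its mean response was 3.47 ± 0.57 on the log2 scale (SE, limma adjusted p = 0.000706), and since it starts from low values it was 5.11 with a pseudocount of 0.1 and 6.58 in edgeR. It was called in all 16 alternatives.

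Wnt9a also rose with TGFβ, from a median of 12.2 CPM to one of 45.4 CPM. The treated lines held 132 and 36.0 CPM (ΔHD1/fl), 13.8 and 45.4 CPM (ΔHD1/-), 36.3 and 75.2 CPM (ΔHD2/fl), and 39.7, 46.1 and 45.5 CPM (ΔHD2/-). It was higher in 8 of 9 lines, and lower in ΔHD1/- line 1, which held 17.4 CPM untreated. Its mean response was 1.90 ± 0.28 on the log2 scale (SE, limma adjusted p = 0.00033), and all 16 alternatives called it. Wnt9a was thus above its untreated value in every line with Wnt3a and in every line but 1 with TGFβ.

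Wnt10a (chromosome 1, 74792019 to 74804176), a ligand of the β-catenin pathway in epithelia, fell with TGFβ. Its median dropped from 14.3 to 2.19 CPM, and it was lower in 9 of 9 lines. In the ΔHD1/fl lines it went from 4.99 and 111 CPM to 0.883 and 6.53 CPM, and in the ΔHD2/fl lines from 24.6 and 45.0 CPM to 2.19 and 11.3 CPM. In the ΔHD1/- lines it went from 11.2 and 24.5 CPM to 0.437 and 7.06 CPM, and in the ΔHD2/- lines from 14.3, 4.14 and 4.14 CPM to 1.97, 3.29 and 1.38 CPM. The mean response was -2.22 ± 0.70 on the log2 scale (SE, limma adjusted p = 0.0376, with the block 0.000361). The call was lost in 10 of 16 alternatives, at adjusted p-values of up to 0.141, among them median-of-ratios scaling (0.0578), the average of ΔHD2/- lines 2 and 3 (0.0771) and leaving out any 1 of the ΔHD1/-, ΔHD2/fl or ΔHD2/- lines.

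Wnt4 (chromosome 4, 137277635 to 137299501) fell as well, and was lower in 8 of 9 lines, all but ΔHD1/- line 2. It went from 37.7 and 39.9 CPM to 3.62 and 2.95 CPM in the ΔHD1/fl lines, and from 11.0 and 14.3 CPM to 0.189 and 3.12 CPM in the ΔHD2/fl lines. In ΔHD1/- line 1 it went from 15.9 to 0.0397 CPM, while ΔHD1/- line 2 held 1.72 and 1.80 CPM. In the ΔHD2/- lines it was at 0.167 to 0.349 CPM untreated and at 0 to 0.0757 CPM with TGFβ, so that a fall there was near the limit of detection. The mean response was -2.03 ± 0.47 on the log2 scale (SE, limma adjusted p = 0.00704), and the call was lost only without ΔHD2/fl line 1 (0.0518).

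**Figure D4:**
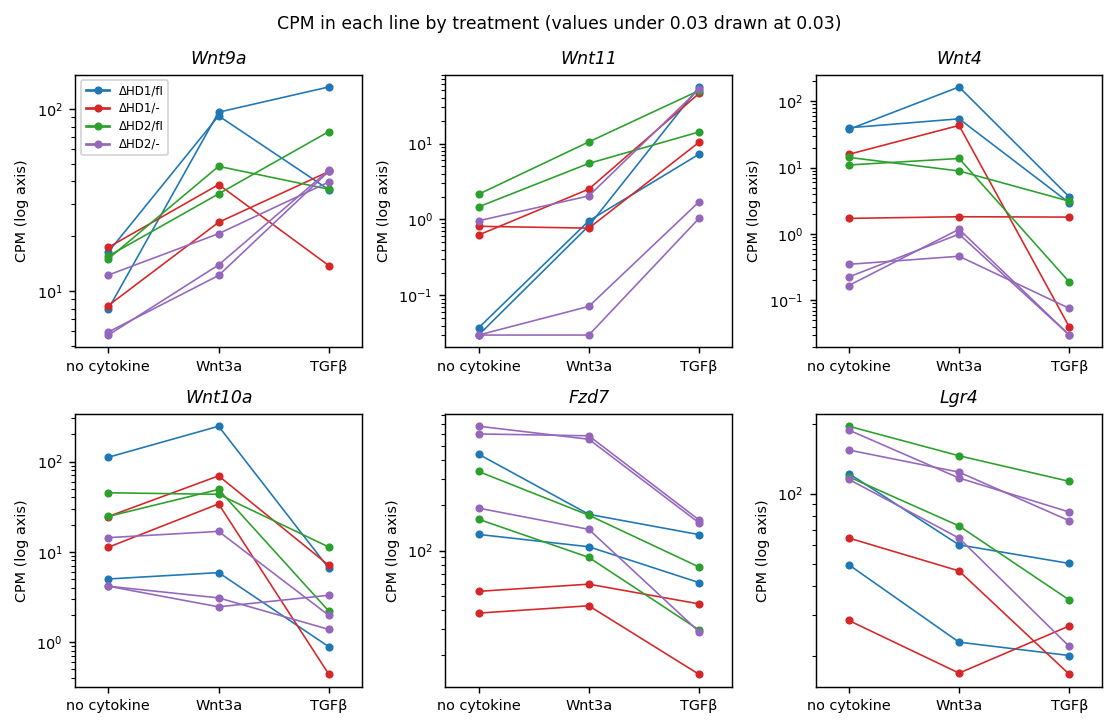
CPM of the 6 genes called in the mean TGFβ response, in each line without cytokine, with Wnt3a and with TGFβ. The vertical axes are logarithmic, each connected set of dots is 1 line, colours are genotypes, and values under 0.03 CPM are drawn at 0.03. With TGFβ Wnt11 is higher, and Wnt10a, Fzd7 and Lgr4 are lower, in all 9 lines.

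Of the receptors Fzd7 alone was called in the mean response. It was lower with TGFβ in 9 of 9 lines, with medians of 192 CPM untreated and 61.2 CPM treated. It went from 439 and 128 CPM to 128 and 61.2 CPM (ΔHD1/fl), from 38.3 and 53.5 CPM to 15.0 and 44.1 CPM (ΔHD1/-), from 162 and 337 CPM to 29.6 and 77.8 CPM (ΔHD2/fl), and from 192, 599 and 675 CPM to 28.8, 160 and 153 CPM (ΔHD2/-). Treated and untreated lines overlapped in ΔHD1/- and in no other genotype, though so few lines can separate by chance. Its mean response was -1.68 ± 0.44 on the log2 scale (SE, limma adjusted p = 0.0147, with the block 2.09e-06). The call was lost without ΔHD1/- line 1 (0.0636) or either of the ΔHD2/fl lines (0.0605 and 0.0528). With TGFβ, Fzd6 or Fzd2 led the Frizzled level per length in 8 of 9 lines, and Fzd7 in ΔHD2/- line 2.

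Fzd2 and Fzd5 had values of the opposite sign. Fzd2, a receptor of both Wnt branches, was higher with TGFβ in 9 of 9 lines, by 0.90 ± 0.20 on the log2 scale (SE, limma adjusted p = 0.00621). It was under the fold limit here and over it with median-of-ratios scaling and in edgeR, which both called it. Fzd5, a receptor of epithelial cells, was higher in 8 of 9 lines at 0.85 ± 0.30 (limma adjusted p = 0.0613), and was called under the same 2 settings. Lrp6 was lower in 9 of 9 lines at -0.33 ± 0.15 (limma adjusted p = 0.129). Of all genes 5.41% were higher and 15.7% lower in all 9 lines. The other 10 receptors lay between -0.67 (Lrp5) and 0.53 (Fzd3), with no call in either fit, and the median of the 14 was -0.11.

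Lgr4 and Lgr6 both bind R-spondins. Lgr4 (chromosome 2, 109917647 to 110014257) fell in 9 of 9 lines, from a median of 118 to 34.9 CPM, at -1.25 ± 0.36 on the log2 scale (SE, limma adjusted p = 0.0249). It changed least in ΔHD1/- line 2, from 28.5 CPM by -0.08 on the log2 scale, and most in ΔHD2/- line 1, from 115 to 22.0 CPM. Its call was lost in edgeR (0.0555) and without ΔHD1/- line 1 (0.109), ΔHD2/fl line 1 (0.0921) or ΔHD2/- line 3 (0.0503). Lgr6 (chromosome 1, 134983300 to 135105374) was higher with TGFβ in 8 of 9 lines, at 2.87 ± 1.03 (limma adjusted p = 0.0638), and was called with the block (2.30e-05).
Without cytokine it was at 16.5 and 1.64 CPM in the ΔHD1/fl lines, 0.812 and 0.119 CPM in the ΔHD1/- lines, 10.3 and 76.8 CPM in the ΔHD2/fl lines, and 53.4, 1.40 and 1.00 CPM in the ΔHD2/- lines. With TGFβ they held 99.1 and 81.5 CPM, 163 and 15.5 CPM, 93.4 and 204 CPM, and 135, 0.776 and 1.08 CPM. In ΔHD2/- lines 2 and 3 it thus stayed at or under 1.40 CPM, while every other line was above its untreated value. Without ΔHD2/- line 1 the adjusted p was 0.00521. Rspo3, the one R-spondin expressed, was at most at 1.67 CPM with TGFβ, and Lgr5 at most at 2.00 CPM, with no call in either fit.

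Sfrp1 (chromosome 8, 23411383 to 23449632), the one antagonist above 1 CPM in most lines, was lower with TGFβ in 9 of 9 lines. Its mean response was -1.29 ± 0.94 on the log2 scale (SE, limma adjusted p = 0.371), it was called with the block (0.00121), and the adjusted p was between 0.106 and 0.569 when single lines were left out. Without both lines that lacked Cdh1 and Epcam it was also called (-1.59, 0.0131), as was Dkk2 (1.45, 0.00147, against 0.88 and 0.223 with all lines), beside 7.79% of all genes. It went from 142 to 38.4 CPM in ΔHD1/fl line 1, from 216 and 158 to 43.5 and 50.2 CPM in the ΔHD2/fl lines and from 122 to 20.9 CPM in ΔHD2/- line 1. ΔHD2/- lines 2 and 3 moved least among the expressing lines, from 144 and 142 to 117 and 125 CPM. In ΔHD1/- line 2, at 0.119 CPM untreated and 0.036 CPM with TGFβ, the fall of Sfrp1 was near the limit of detection. Wnt7b was higher with TGFβ in 9 of 9 lines, at 1.24 ± 1.22 (limma adjusted p = 0.525), and was called with the block (0.00357). Its rise was steepest in the 2 lines where it was low, from 9.21 to 82.4 CPM in ΔHD1/fl line 2 and from 0.0594 to 4.10 CPM in ΔHD1/- line 2. Of the maturation proteins, Wls was at 0.51 ± 0.17 and Porcn at -0.48 ± 0.29 with TGFβ (limma adjusted p = 0.0544 and 0.272), with no call in either fit.

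**Figure D5:**
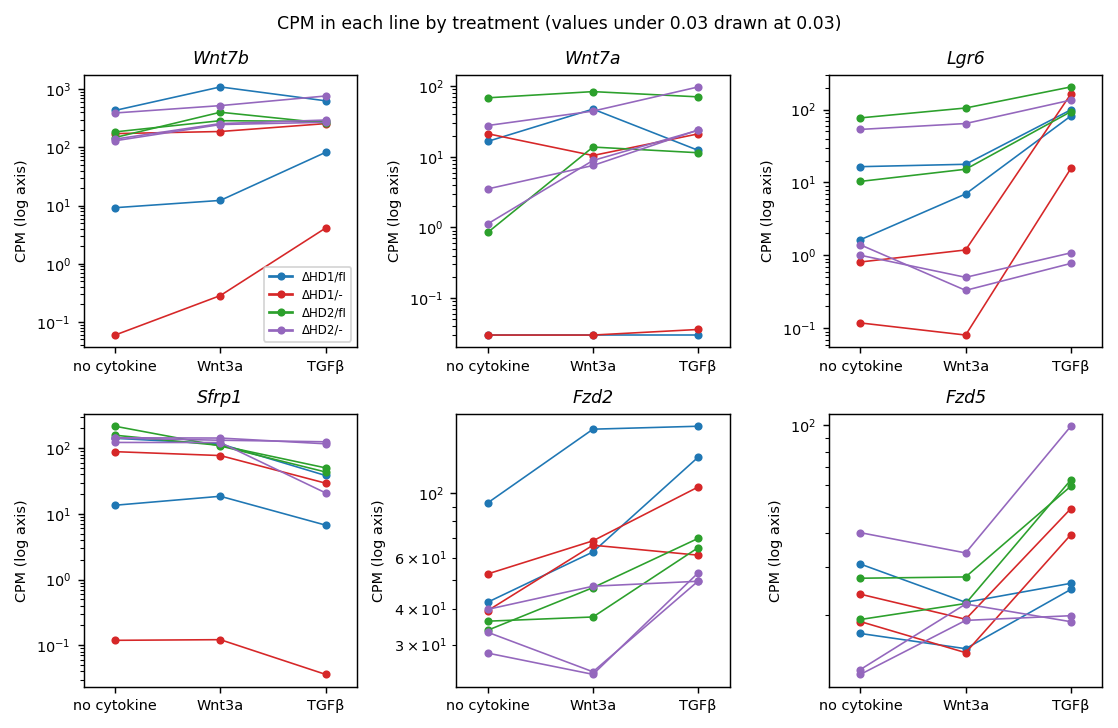
CPM of 6 further genes by line and treatment: Wnt7b, Lgr6 and Sfrp1, called in the mean TGFβ response with cell line as a block, Wnt7a, called so in ΔHD2/- lines, and Fzd2 and Fzd5, called under other settings. The vertical axes are logarithmic, each connected set of dots is 1 line, colours are genotypes, and values under 0.03 CPM are drawn at 0.03. Without cytokine Wnt7b spans 0.0594 to 434 CPM and Sfrp1 0.119 to 216 CPM over the lines, and both move one way with TGFβ.

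Marker genes of basal cells also changed with TGFβ, not all of them the same way. The 4 basal or myoepithelial markers summed to 303–15662 CPM without cytokine and 86.5–2955 CPM with TGFβ, and the sum was lower in 8 of 9 lines, all but ΔHD1/- line 2. Of the 4, Trp63 was called lower in the mean response, and with the block Krt5, Krt14 and Trp63 were lower and Acta2 higher. Krt5 was at only 0.128 to 2.38 CPM in the ΔHD1 lines without cytokine. Of all genes 5.42% were called in the mean response, or 8.92% with the block. The 5 mesenchymal markers summed to 136–4591 CPM and 391–4462 CPM, with 0 of 5 called, and 2 higher with the block (Cdh2 and Zeb2). The 5 mammary epithelial markers summed to 1.38–6051 and 5.93–9704 CPM, with 0 called, and with the block Krt7 higher and Cdh1 lower. The 6 fibroblast markers summed to 1095 and 3804 CPM with TGFβ in the 2 lines without Cdh1 and Epcam and to 25.1–125 CPM in the 7 others, with 0 called, and Col1a1 higher with the block. The 5 luminal ones summed to 0.180 and 0.0837 CPM without cytokine in ΔHD2/- lines 2 and 3, the lines low in Wnt5b, whose Lgr6 was at or under 1.40 CPM without cytokine and with TGFβ, and to 42.2–106 CPM in the 7 others. With TGFβ they summed to 0.296 and 0.167 CPM against 11.6–49.9 CPM (0 called, Esr1 lower with the block). Of these, Gata3 was at 0.135 and 0.0419 CPM in both lines without cytokine. The 3 leukocyte markers summed to 2.11–17.7 CPM without cytokine and 1.43–8.87 CPM with TGFβ, nearly all Cd68. Of the 3 endothelial markers Cdh5 was called higher, at up to 6.32 CPM, and of the leukocyte markers Ptprc and Cd3e stayed at or under 0.252 CPM. The part of these markers in the changes of the Wnt genes was not tested.

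Within single genotypes, the Wnt3a response had 0 of 32 genes called by limma in each. The background of called genes was 0.0151% and 0.00754% in ΔHD1/fl and ΔHD1/- lines and 0.113% and 0.00754% in ΔHD2/fl and ΔHD2/- lines. At an unadjusted p under 0.05 were 1, 1, 1 and 0 of the 32, beside 1.60%, 0.203%, 1.31% and 0.934% of all genes. With the block the calls were also 0, with 6, 1, 5 and 1 at an unadjusted p under 0.05 beside 1183, 221, 839 and 728 of all genes, and edgeR called 0 (2 at an unadjusted p under 0.05 in all). The 3 results at an unadjusted p under 0.05 were all Wnt9a, at log2 fold changes of 2.93 in ΔHD1/fl, 1.26 in ΔHD1/- and 1.36 in ΔHD2/fl lines. For TGFβ, Wnt9a was called in ΔHD2/- lines (2.39 ± 0.48, SE, limma adjusted p = 0.0233), the only call in 4 genotypes with all lines. The backgrounds were 0.211% and 1.43% for ΔHD1/fl and ΔHD1/-, and 0.286% and 0.806% for ΔHD2/fl and ΔHD2/- lines. That call was lost without either of the ΔHD2/fl lines, without ΔHD2/- line 2 or 3, and with those 2 lines averaged. Without both lines that lacked Cdh1 and Epcam, Wnt9a was called with Wnt3a in the remaining ΔHD1/fl line (3.44 ± 0.56, limma adjusted p = 0.0149), beside 0.701% of all genes. With TGFβ the same setting had 6 calls, beside 2.5%, 2.27%, 1.32% and 1.98% of all genes in ΔHD1/fl, ΔHD1/-, ΔHD2/fl and ΔHD2/- lines. They were Wnt9a in ΔHD1/fl (3.90, adjusted p = 0.00573) and ΔHD2/- lines (2.39, 0.00290), Wnt4 in ΔHD1/fl (-3.07, 0.0361), ΔHD1/- (-4.02, 0.00993) and ΔHD2/fl lines (-2.61, 0.0234), and Dkk2 in ΔHD1/- lines (5.13, 0.000833). Each ΔHD1 group then held 1 line, taken to vary like the others.

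With cell line as a block, TGFβ calls numbered 7 and 4 for the ΔHD1/fl and ΔHD1/- lines and 5 each for the ΔHD2/fl and ΔHD2/- lines, at backgrounds of 5.42%, 9.33%, 5.24% and 6.03%. Wnt11 was called in all 4 genotypes, at log2 fold changes of 4.41, 3.75, 3.32 and 2.41. Fzd7 was called in ΔHD1/fl (-1.41), ΔHD2/fl (-2.26) and ΔHD2/- lines (-2.24), and Lgr6 in ΔHD1/fl (3.74), ΔHD1/- (5.19) and ΔHD2/fl lines (2.23). Wnt9a was called in ΔHD1/fl (2.49) and ΔHD2/- lines (2.39), Wnt10a in both ΔHD1 genotypes (-2.78 and -2.38) and Fzd5 in ΔHD1/- (1.02) and ΔHD2/fl lines (1.38). Wnt4 and Fzd2 were called in ΔHD1/fl lines, Sfrp1 in ΔHD2/fl lines, and Lgr4 and Wnt7a in ΔHD2/- lines. For Wnt7a, a ligand known for roles in the reproductive tract, the 3 ΔHD2/- lines went from 27.8, 1.13 and 3.52 CPM to 97.7, 23.8 and 24.0 CPM. Whether the nearly alike ΔHD2/- lines 2 and 3 are independent is not given in the sources used here. With these averaged as 1 line and cell line as a block, a setting chosen after seeing the data, Fzd7 (-2.36, limma adjusted p = 0.00356) was the one of the 5 ΔHD2/- calls that was kept, beside 2.71% of all genes, and Wnt11, Wnt9a, Lgr4 and Wnt7a were not called there. Also lost there were Wnt11, Lgr6 and Sfrp1 in ΔHD2/fl, Wnt4, Wnt9a and Wnt10a in ΔHD1/fl and Wnt10a in ΔHD1/- lines. Over the 4 genotypes 10 calls were made in place of 21. The share of all genes called in ΔHD2/- lines fell as well, from 6.03% to 2.71%. Those of the other genotypes in that setting are not given here, so the fall in calls was not set against them.

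Recombined lines were also set against fl lines, and 0 of 32 genes were called by limma in each of 6 such comparisons. The estimate of the spread took the treatments of a line as separate, though these shared its deviations. The p-values of these comparisons thus rest on fewer independent values than were counted. For ΔHD1/- against ΔHD1/fl the background of called genes was 0.0678%, 0.0452% and 0.0301% without cytokine, with Wnt3a and with TGFβ. At an unadjusted p under 0.05 were 3, 2 and 5 of the 32, beside 4.85%, 5.86% and 8.22% of all genes, and edgeR called 0 (6 at an unadjusted p under 0.05 in all). For ΔHD2/- against ΔHD2/fl the background of called genes was 0.55%, 0.686% and 0.354%. At an unadjusted p under 0.05 were 2, 5 and 2 of the 32, beside 8.61%, 8.64% and 7.98% of all genes, and edgeR called 0 (14). The smallest adjusted p was that of Wnt4 in untreated ΔHD2 lines, 0.132 in limma, at -3.44 ± 0.89 (SE) on the log2 scale. The ΔHD2/fl lines held 11.0 and 14.3 CPM and the ΔHD2/- lines 0.349, 0.225 and 0.167 CPM. These did not overlap, which so few lines can also do by chance. This comparison was called without ΔHD1/- line 1 (0.00206) or ΔHD1/- line 2 (0.00208), neither of which is in it but which share its estimate of the spread, and without both lines that lacked Cdh1 and Epcam (0.00229). In these settings 0.689%, 0.692% and 1.29% of all genes were called. With Wnt3a the same comparison of Wnt4 (-2.71 ± 0.89, limma adjusted p = 0.306) was called in those settings as well, at 0.0138, 0.0135 and 0.00562, beside 0.81%, 0.806% and 2.1% of all genes. Rspo3 in untreated ΔHD2 lines (0.0498) and Fzd6, Wnt9a and Dkk2 in TGFβ-treated ΔHD1 lines (0.0188, 0.0151 and 0.000469) were called without both lines that lacked Cdh1 and Epcam. That setting raised the calls over all genes as well, to 1.47%, 4.87% and 4.63% in the ΔHD1 comparisons without cytokine, with Wnt3a and with TGFβ, and to 1.26% in TGFβ-treated ΔHD2 lines.

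Single lines decided other calls. Without ΔHD1/fl line 1 there were 10 calls in the ΔHD1 comparisons, of Ror2, Wnt6, Wnt10b, Rspo3 and Lgr5, all lower in ΔHD1/- lines and all resting on ΔHD1/fl line 2, the remaining fl line. They were 4, 5 and 1 calls without cytokine, with Wnt3a and with TGFβ, beside 0.615%, 0.683% and 0.243% of all genes. Without ΔHD1/- line 1 there were 2, of Wnt4 without cytokine and with Wnt3a, beside 0.871% and 0.825% of all genes, and without ΔHD1/- line 2 there was 1, of Dkk2 with TGFβ, beside 0.342%. Without ΔHD2/- line 1 there were 8 calls in the ΔHD2 comparisons, of Wnt5b, Wnt11, Lgr6 and Fzd5, all lower in the nearly alike ΔHD2/- lines 2 and 3. They were 1, 3 and 4 calls without cytokine, with Wnt3a and with TGFβ, and 5.67%, 5.17% and 3.37% of all genes were called with them, so that the members' share without cytokine was below that of all genes. Without ΔHD2/- line 2 or 3 there were 0.

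Whether recombined and fl lines responded differently to a cytokine was tested by interaction terms. Of 32 genes 0 were called, and 0 were at an unadjusted p under 0.05, in each of the 4 interactions. The background was 0% (ΔHD1, Wnt3a), 0.00754% (ΔHD1, TGFβ), 0.0151% (ΔHD2, Wnt3a) and 0.0301% (ΔHD2, TGFβ). With the block 4 results were at an unadjusted p under 0.05, with 0 called, beside 155 and 1091 of all 13270 genes for Wnt3a and TGFβ in ΔHD1 and 374 and 1167 in ΔHD2, and edgeR gave 0 of either. The largest difference by p was that of Wnt9a with Wnt3a in ΔHD1 lines, at -1.67 ± 0.84 (SE, limma adjusted p = 1.0). The Wnt9a responses were 3.44 and 2.42 in the ΔHD1/fl lines and 1.10 and 1.42 in the ΔHD1/- lines. The TGFβ difference of Dkk2 in ΔHD1 lines was called without ΔHD1/- line 2 (4.88, limma adjusted p = 0.0103, beside 0.0152% of all genes), and rested on the 47.6 CPM in ΔHD1/- line 1. It was also called without both lines that lacked Cdh1 and Epcam (0.0207), beside 0.208% of all genes.

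Other genes of the pathway were read from lists of 22 surface and secreted regulators, 17 intracellular transducers and 12 targets, of which 17, 17 and 8 were tested. With Wnt3a 0, 0 and 1 were called, the last being Axin2, and with the block Notum was added, an enzyme that removes the lipid from Wnt ligands. Of all genes 0.0226% were called, or 0.241% with the block. The median log2 fold changes of the lists were 0.04, -0.0028 and 0.28. With TGFβ 1, 0 and 1 were called: Notum fell by 3.99 ± 0.52 (SE, limma adjusted p = 0.000117) on the log2 scale, lower in 9 of 9 lines, and Cd44, an adhesion receptor, rose by 1.35 ± 0.38 (limma adjusted p = 0.0211), higher in 9 of 9. With the block the regulators Sostdc1 and Igfbp4 were called lower too, at limma adjusted p-values of 0.0833 and 0.497 without it. Sostdc1 was lower in 3 lines and higher in 1, and Igfbp4 lower in 8 and higher in 1. Of all genes 5.42% were called, or 8.92% with the block. The medians with TGFβ were -0.05, -0.19 and -0.10, beside -0.16 over all genes. Vangl1 and Vangl2, planar polarity proteins, were at -0.91 ± 0.13 and 0.87 ± 0.23 (limma adjusted p = 0.000246 and 0.0153), both under the fold limit. Bcl9l itself was lower with TGFβ in 9 of 9 lines, at -0.67 ± 0.21 (limma adjusted p = 0.0398), also under the limit.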

How the data were processed

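RNA was sequenced from 27 libraries of 9 tumour cell lines. Per the study's methods the authors aligned reads to mm10 with STAR, kept unique hits, counted reads over RefSeq exons and deposited the values as CPM. Dividing by the value of 1 read gave whole reads for 100% of values (tolerance 0.1), and the libraries held 21.86 to 33.69 M reads (median 25.96 M), so that 3 reads stood for 0.089 to 0.137 CPM. Intervals and floors cover counting error only. Of 24454 gene IDs 24374 were matched to a symbol and 80 were not. Kits that mark strand were used, and the strand setting of the counting is not given in the sources used here.

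Genes with at least 1 CPM in 2 or more libraries (13270) were tested with limma 3.58.1 (R 4.3.3) on log2(CPM + 1), with a mean trend and 12 group means, and p-values were adjusted by Benjamini-Hochberg over all of them. Fold changes on this scale understate the change of low genes. A gene was called at an adjusted p of at most 0.05 and a log2 fold change of at least 1 in size. Mean responses weight the 4 genotypes equally. Treatments of 1 line came from the same cells, and their deviations from the group means correlated at 0.509 to 0.940 in 27 pairs, so the fit with cell line as a block is given beside the results it changes. Results were recomputed with 0.1 as the pseudocount, on unfiltered genes, with median-of-ratios scaling, with edgeR 4.0.16 on recovered reads, with each line left out, and ΔHD2/- lines 2 and 3 averaged. The fits without the 2 ΔHD1 lines that lack Cdh1 and Epcam, and with the block and ΔHD2/- lines 2 and 3 averaged, were chosen after seeing the data. On simulated data with 200 of 12987 genes changed 4-fold, 85.5% were recovered for the mean TGFβ response. The simulated libraries were independent and held no differences between lines, and genes of very low level were not among those changed. This share may thus not hold for genes that vary between lines or are low.

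The genes and lists were chosen with earlier results of these data known. Genes were named where they were called in any comparison in either fit, moved one way in all 9 lines, had the highest level per length overall or in their role, or were at 1 CPM in some untreated lines and under 0.1 CPM in others. Other named values (Fzd5, Lrp5, Wls, Porcn, Wnt5b, Vangl1, Vangl2 and Bcl9l among them) were chosen after they were seen. Per a supplementary figure legend of the study fl lines came from different tumours, and whether from separate animals is not given. The p-values thus measure only the spread between these lines. Promoters came from RefSeq, which held 35 of the 53 genes. Gene coordinates are of mm10.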

Additional observations from a re-analysis of the deposited data

How the results depend on the processing

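The mean Wnt3a response called 0 of the 32 tested genes, and 1, Wnt9a, with the replicate block on cell line, without the filter on low values, with median-of-ratios scaling, or without both ΔHD1 lines that lacked Cdh1 and Epcam, a setting chosen after seeing the data. Leaving out single lines gave 0 to 1. The mean TGFβ response called 6, between 5 and 9 in the other settings, and 2 to 6 without single lines: 2 without ΔHD2/fl line 1 (Wnt11 and Wnt9a) and 3 without ΔHD1/- line 1 (with Wnt4). By genotype, TGFβ had 1 call in all, 21 with the block and 10 with the block and ΔHD2/- lines 2 and 3 averaged (chosen after seeing the data), 6 without both of those ΔHD1 lines, 0 with ΔHD2/- lines 2 and 3 averaged, and 0 to 5 without single lines. By genotype, Wnt3a had 0, and 1 without both ΔHD1 lines.

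Recombined against fl lines gave 0 calls in ΔHD1 and in ΔHD2. Without both ΔHD1 lines there were 3 in each, while calls over all 12976 genes then tested were 191, 632 and 601 in ΔHD1 and 167, 272 and 163 in ΔHD2 (without cytokine, Wnt3a, TGFβ). Without single lines there were 0 to 10 in ΔHD1 and 0 to 8 in ΔHD2, the highest at 32 to 90 and at 445 to 749 genes called in all. The interactions had 0, and 1 (Dkk2) without both ΔHD1 lines, and 0 to 1 without single lines. Dropping both lines leaves 1 line in each ΔHD1 group, which is then assumed to vary like the others. The 17 genes at 1 CPM in every untreated line were 16 at a limit of 2 CPM, 17 at 0.5 CPM, 17 to 19 without single lines and 20 without both ΔHD1 lines. None of the mean responses that were called in either fit or moved one way in every line reversed its direction. Where a setting dropped lines, fewer lines were fitted, and otherwise the cause was not tested. Whether fl and recombined lines of the same number share an origin is not given in the sources used here. Their deviations correlated at 0.117 to 0.472 in ΔHD1 and 0.0871 to 0.190 in ΔHD2, over 2 numbers each, and both ΔHD1 lines without Cdh1 and Epcam are number 2. With that number as a block 0 of the 32 genes were called. Genes under 3 reads could not be told from absent at this depth.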
